A study of Mus musculus with 25 samples.

Results

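The IL-2 response of CD8+ T cells that carry a deletion in an intron of Il2ra was described from a pair of H3K27ac HiChIP libraries, one from IL-2-treated cells and one from untreated control cells. HiChIP ligates DNA ends that lie near each other in the nucleus, pulls down those that carry a chosen chromatin mark, and counts the joined ends. H3K27ac marks active promoters and enhancers. The features were pairs of 1 kb bins, with their contact counts, and the anchor bins of those pairs, with their read coverage, that were listed in both libraries. There were 36958 such pairs of the 121571 listed in any of the 6 HiChIP libraries of the series, and 21633 such bins of 44843.

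The CD8+ T cells came from spleens of C57BL/6J mice, and were stimulated for 2 days and rested for 4 h before IL-2 was added or left out. The groups were intron deletion with IL-2, intron deletion control, upstream deletion (a deletion upstream of Il2ra) with IL-2, upstream deletion control, wild type (WT) with IL-2 and WT control. Each had 1 library, so the interval of a ratio covers counting error only and leaves out variation between libraries. For this response genotype and library cannot be told apart. The sources used here do not give where the deletions start and end, how many animals or founder lines there were, or the dose and time of IL-2. The submitters made the HiChIP libraries to see which contacts the promoter of Il2ra makes with and without the deleted elements.

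IL-2 is the growth and survival cytokine of activated T cells. Its receptor has 3 chains: alpha (CD25, encoded by Il2ra), which raises the affinity for IL-2, beta (Il2rb) and the common gamma chain (Il2rg). Bound receptor activates the JAK1 and JAK3 kinases, which phosphorylate STAT5, and STAT5 binds TTCNNNGAA motifs and activates genes such as Cish, Socs1 and Il2ra itself. The kinase AKT, also downstream of the receptor, keeps FOXO factors out of the nucleus, and FOXO targets such as Ccng2 and Sesn3 fall when T cells receive growth signals.

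Below are promoter sequences of genes that frame the response, 250 bases before to 50 after the RefSeq start of transcription, from RefSeq on GRCm38.p6, plus strand. Cish is a STAT5 target whose end bins had more coverage with IL-2, Il2ra is the gene that carries the deletion, and Ccng2 had less coverage with IL-2; Ccng2 was chosen for printing after its values were seen. Capitals mark matches to TTCNNNGAA (STAT factors), TGANTCA (AP-1) or GTAAACA (FOXO and other forkhead factors), each searched on both strands.
Cish: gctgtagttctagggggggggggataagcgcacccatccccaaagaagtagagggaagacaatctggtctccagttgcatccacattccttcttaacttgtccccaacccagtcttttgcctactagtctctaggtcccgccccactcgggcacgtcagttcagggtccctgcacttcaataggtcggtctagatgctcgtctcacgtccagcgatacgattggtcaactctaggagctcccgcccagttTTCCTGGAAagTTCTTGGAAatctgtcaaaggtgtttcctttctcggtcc
Il2ra: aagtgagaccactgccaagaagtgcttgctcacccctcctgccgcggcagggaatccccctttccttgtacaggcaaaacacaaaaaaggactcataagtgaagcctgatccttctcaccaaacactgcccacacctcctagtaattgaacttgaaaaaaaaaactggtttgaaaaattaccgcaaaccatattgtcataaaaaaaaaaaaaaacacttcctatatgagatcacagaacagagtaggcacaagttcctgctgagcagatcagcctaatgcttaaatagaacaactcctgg
Ccng2: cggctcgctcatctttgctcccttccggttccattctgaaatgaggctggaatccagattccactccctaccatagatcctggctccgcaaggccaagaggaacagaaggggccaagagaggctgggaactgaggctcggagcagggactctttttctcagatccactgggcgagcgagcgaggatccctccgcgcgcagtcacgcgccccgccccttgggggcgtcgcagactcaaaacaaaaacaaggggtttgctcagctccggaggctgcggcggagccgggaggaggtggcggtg
The windows are chr9:107296409-107296708 for Cish, chr2:11642542-11642841 for Il2ra and chr5:93267323-93267622 for Ccng2. The Cish window held 2 TTCNNNGAA matches that do not overlap, at the start of transcription and 11 bases after it, and no other motif. The Il2ra and Ccng2 windows held none of the 3 motifs, which says only that these letters are not in these 300 bases. Of 32851 promoter windows of the same length, 8.30% held TTCNNNGAA, 7.81% TGANTCA and 3.65% GTAAACA. The bin that holds the Cish start had 5809 reads with IL-2 after scaling for depth (8413 before scaling), against 5170 in control. The scaled ratio was 1.12 (counting interval 1.09 to 1.16).

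The intron deletion IL-2 library listed 72743 pairs with 2709959 contacts, and the control library 38879 pairs with 1314137 contacts, the fewest of the 6. Every listed pair had at least 20 contacts, so a pair absent from a list was treated as not measured and not as 0. Of the pairs in the control list, 95.1% were also in the IL-2 list, and 50.8% of those in the IL-2 list were in the control list. The difference in depth was removed by dividing the IL-2 value by a trimmed mean of ratios (TMM), 1.39 for pairs and 1.45 for bins. A feature was called when its scaled ratio was at least 1.5 or at most its inverse and its exact 95% counting interval left out 1. Over the 18580 bins listed in all 6 libraries, log2 coverage of the IL-2 and control libraries of the intron deletion correlated at r = 0.996, the highest of the 15 pairs of libraries. The corresponding value was 0.976 within the upstream deletion and 0.981 within WT, and it was 0.939 to 0.964 between an intron deletion library and any other. CD8+ T cell markers were present: 5 of 6 had gene-end bins in both libraries, with ratios of 0.991 to 0.998, and no NK or erythroid marker was listed; 1 CD4 or regulatory T cell marker (Ikzf2), 1 B cell marker (Cd79a) and 3 myeloid markers (Cd68, Tyrobp and Spi1) were, with ratios of 0.913 to 1.06.

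With IL-2, bins across the genome changed little in the intron deletion. Scaled coverage ratios lay between 0.815 and 1.23 from the 1st to the 99th percentile, and the SD of their log2 values was 0.117, against 0.299 in the upstream deletion and 0.275 in WT. No bin reached 1.5-fold higher (0.0% called) and 1 of 21633 was 1.5-fold lower (0.00462%). In the upstream deletion 902 bins were called higher and 516 lower (5.84% together), and in WT 943 and 390 (4.28% together). Median coverage per bin was 856 reads with IL-2 and 777 in control in the intron deletion, 781 with IL-2 and 792 in control in the upstream deletion, and 876 with IL-2 and 851.5 in control in WT. In the intron deletion the counting interval lay above 1 in 2544 bins (11.8%) and below 1 in 2411 (11.1%).

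The bins that moved in the other genotypes mostly moved the same way in the intron deletion, by a fraction of the size. In bulk libraries a change in fewer cells and a smaller change in each cell cannot be told apart. Bins called higher in WT and listed in all 6 libraries numbered 500, and their median ratio was 1.11 for the intron deletion and 1.73 for the upstream deletion. Of these, 457 had a ratio above 1 in the intron deletion, and 500 did for the upstream deletion. For the 202 bins called lower in WT, the median was 0.884 for the intron deletion and 0.605 for the upstream deletion, with 195 and 202 below 1, in that order. None of these 500 and 202 bins was called at 1.5-fold in the intron deletion. Over all 18580 bins, the slope through 0 of the log2 response on the WT response was 0.216 for the intron deletion and 1.02 for the upstream deletion. The correlation with the WT response was r = 0.506 for the intron deletion and r = 0.904 for the upstream deletion. These are descriptions across bins, which share libraries, depth and neighbours.

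**Figure D1:**
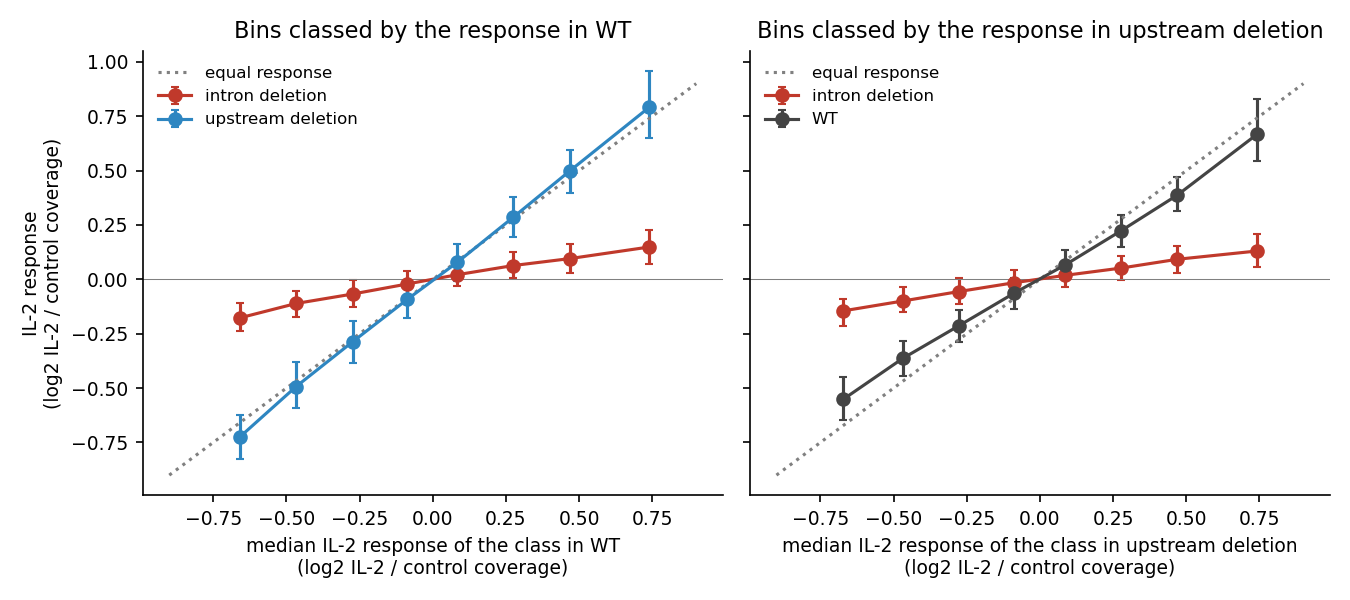
Median IL-2 response (log2 of the scaled IL-2 over control coverage) of bins grouped into 8 classes by their response in WT (left) or in the upstream deletion (right). Points are class medians, bars the interquartile range over bins and the dotted line an equal response; the intron deletion medians stay between -0.18 and 0.15 where the other genotype reaches -0.72 and 0.79.

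The difference between responses was tested with edgeR's quasi-likelihood test, as the intron deletion response minus the mean response of the other genotypes. It passed an adjusted p of 0.05 in 1870 bins with a higher response in the intron deletion (10.1%) and 2120 with a lower one (11.4%) of 18580. The test has 1 residual degree of freedom, which comes from the gap in response between upstream deletion and WT. The prior degrees of freedom were infinite in the edgeR fits. Each feature was thus judged by a spread pooled over features, and not by its own gap between those genotypes. DESeq2 gave an adjusted p for 12456 of these bins and called 124 higher and 375 lower. The p-values of both tests rest on no repeat of the intron deletion libraries.

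Levels at the responding bins show which libraries differed. At the 654 bins called higher in the upstream deletion, coverage relative to the WT control library, each library divided by its median bin, had a median of 1.08 in the intron deletion IL-2 library and 1.01 in its control. It was 1.65 in the upstream deletion IL-2 library, 0.949 in its control and 1.58 in the WT IL-2 library. At the 414 bins called lower there, the medians were 0.920 and 1.02 in the intron deletion with IL-2 and in its control, 0.681 and 1.10 in the upstream deletion with IL-2 and in its control, and 0.678 in WT with IL-2. By these medians, both intron deletion libraries lay near the control level of the other genotypes. The intron deletion IL-2 library was displaced slightly to the side of the other IL-2 libraries. Medians do not describe each single bin.

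Bins called in the same direction in both other genotypes were followed one by one; that selection was chosen after seeing the data. There were 431 higher bins, and in the intron deletion the interval lay above 1 in 244 of them (56.6%, against 12.1% of all bins listed in the 6 libraries), included 1 in 187 and lay below 1 in 0. Among the 170 lower bins it lay below 1 in 124 (72.9%, against 10.9% of all), included 1 in 46 and lay above 1 in 0. By position, 34 of the higher bins were at the end of a gene, 208 in its interior and 189 outside protein-coding genes. Of the lower bins 8, 97 and 65 were, in that order. Among all 21633 bins of the intron deletion, 14.7% were at a gene end, 53.6% in an interior and 31.7% outside.

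Of the higher bins, ranked by the interval bound nearest 1, the first lay at chr1:51514001-51515000, 35.5 kb from Nabp1, which encodes a single-stranded DNA binding protein. It had 2669 scaled reads with IL-2, against 1896 in control, a ratio of 1.41 (95% counting interval 1.33 to 1.49). The same bin had ratios of 1.90 in the upstream deletion and 1.96 in WT.

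A bin 5.69 kb from Fasl, the death ligand of cytotoxic T cells, had 1329 scaled reads with IL-2 and 931 in control, a ratio of 1.43 (1.32 to 1.54). A bin beside Prkcq, the T cell receptor kinase PKC-theta, had 1725 scaled reads with IL-2, against 1227 in control (1.41, 1.31 to 1.51). For Fasl and Prkcq in that order, the ratios were 1.94 and 1.82 in the upstream deletion, and 1.64 and 1.96 in WT. Prkcq (chr2:11171905-11301226) lies on the same chromosome as Il2ra (chr2:11642792-11693194), the gene that carries the deletion. An intronic Bcl2 bin at chr1:106607001-106608000 had a ratio of 1.34 (1.247 to 1.444) in the intron deletion, 2.48 in the upstream deletion and 2.48 in WT; Bcl2 is the anti-apoptotic protein. The widest gap among these was inside Cdk6, the G1 kinase, at chr5:3460001-3461000. There the ratio was 1.36 (1.28 to 1.45) in the intron deletion, against 4.51 in the upstream deletion and 4.25 in WT. Before scaling for depth, the intron deletion control had 1576 reads there, against 1031 in the upstream deletion control and 1140 in the WT control. Its count was above both other controls at the Bcl2 bin (1107, against 833 and 850) and Prkcq bin (1227, against 936 and 858). At the Nabp1 and Fasl bins its count was below both.

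Of the lower bins, the first in the same ranking lay inside Rbm38, an RNA-binding protein gene, at chr2:173027001-173028000. It had 1140 scaled reads with IL-2, against 1479 in control, a ratio of 0.771 (0.718 to 0.827), with 0.582 in the upstream deletion and 0.608 in WT. A bin within both Cdh23 and Vsir, the gene of the checkpoint protein VISTA, had a ratio of 0.821 (0.786 to 0.857), with 0.460 in the upstream deletion and 0.537 in WT. The next were a bin 42.9 kb from Zfp36l2, an mRNA decay factor (0.782), one inside Inpp4b, a phosphoinositide phosphatase (0.789), and the end of Ccng2 (0.833).

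**Figure D2:**
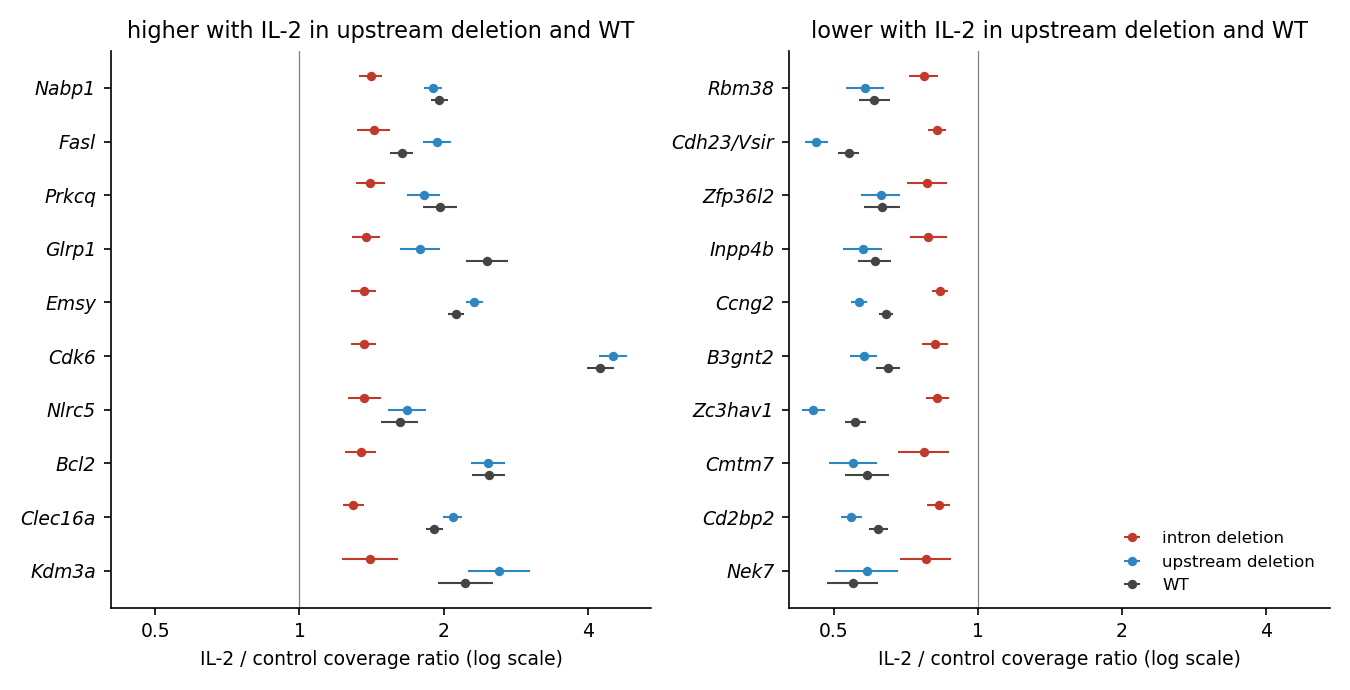
Scaled IL-2 over control coverage ratio (log axis) of the 10 leading bins in each direction among those called in both other genotypes, named by the nearest gene, with exact 95% counting intervals as bars. The bins were chosen for a 1.5-fold call in both other genotypes and ranked by the intron deletion interval, which fixes their order; the plot shows sizes, with intron deletion ratios of 1.30 to 1.43 on the left and 0.771 to 0.833 on the right.

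Other bins were named from the intron deletion alone. With the lower threshold of at least 25% higher or 20% lower, 150 bins were higher (0.693%) and 139 lower (0.643%). Of the 150, 48.0% lay outside protein-coding genes and of the 139, 45.3%, compared with 31.7% of all bins. Of the 114 higher ones listed in all libraries, 100 were above 1 in both other genotypes, and of the 75 lower ones 49 were below 1 in both; of all bins listed in the 6 libraries 41.1% were above 1 in both and 42.8% below. A bin 243.5 kb from Tle3, a corepressor gene, had 619 scaled reads with IL-2 and 434 in control (1.43, 1.27 to 1.60); it was not listed in both libraries of either other genotype.

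The single bin past 1.5-fold, at chr2:128376001-128377000, lay 213.5 kb from Bcl2l11, the gene of the pro-apoptotic protein BIM. It had 403 scaled reads with IL-2, against 633 in control, a ratio of 0.637 (0.568 to 0.714). A second bin 171.5 kb from Bcl2l11 had a ratio of 0.730 (0.670 to 0.796), and was not listed in any library of another genotype. The first was listed in the control libraries of the upstream deletion (469 reads) and WT (549 reads) and in neither of their IL-2 libraries. At Myb, a transcription factor of immature and stem-like lymphocytes, the gene-end bin had a ratio of 0.779 (0.730 to 0.832), with 0.736 in WT.

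Gene groups were read at their ends, as the summed coverage of the bins that hold an annotated end of the gene. In all, the interval lay above 1 in 367 of 3187 gene-end bins (11.5%) and below 1 in 399 (12.5%). Of 25 IL-2 and STAT5 target genes, 19 had such bins, with 10 intervals above 1, 1 below and 8 that included 1. Their median ratio was 1.08 in the intron deletion, 1.31 in the upstream deletion and 1.21 in WT. In the upstream deletion 17 of the 19 lay above 1 and in WT 18 of 19. The edgeR difference, taken at the bin of each gene with the most control reads, was lower in the intron deletion for 9 of the 19 and higher for 2. Of all 18580 bins tested, without that choice of bin, 11.4% were lower and 10.1% higher.

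Cish, an inhibitor of cytokine receptor signalling that STAT5 induces, had 9789 scaled reads with IL-2, against 8592 in control, a ratio of 1.14 (1.11 to 1.17). The ratio was 1.61 in the upstream deletion and 1.46 in WT, and the edgeR difference was -0.37 on the log2 scale (adjusted p = 2.61e-07). Socs1, a second feedback inhibitor, had a ratio of 1.08 (1.05 to 1.12), against 1.43 in the upstream deletion and 1.32 in WT (difference -0.39, edgeR adjusted p = 9.14e-07). Osm, the cytokine oncostatin M, had 1.13 (1.08 to 1.18), against 1.46 in the upstream deletion and 1.39 in WT (difference -0.33, edgeR adjusted p = 3.06e-05); DESeq2 gave an adjusted p of 0.0707 there, and passed Cish (0.0277) and Socs1 (0.0234). Tnfrsf9, the costimulatory receptor 4-1BB, showed the widest gap of the list. It had 503 scaled reads with IL-2 and 488 in control in the intron deletion (1.03, 0.918 to 1.16), while its ratio was 2.30 in the upstream deletion and 1.79 in WT (difference -0.97, edgeR adjusted p = 6.68e-14).

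Several targets had responses whose difference did not pass. Ccnd2, a G1 cyclin, had 1.17 (1.10 to 1.24), against 1.37 in the upstream deletion and 1.26 in WT (edgeR adjusted p = 0.157). Myc, the growth regulator, had 1.10 (1.06 to 1.14), against 1.24 in the upstream deletion and 1.15 in WT (edgeR adjusted p = 0.312). Gzmb, the cytotoxic protease granzyme B, had 1.11 (1.04 to 1.19), against 1.31 in the upstream deletion and 1.14 in WT (edgeR adjusted p = 0.279). Il2rb, the receptor beta chain, had 1.10 (1.05 to 1.14), against 1.37 in the upstream deletion and 1.18 in WT (edgeR adjusted p = 0.101). A p that misses the threshold does not show equal responses. Mcl1, a survival gene, was the one member whose interval lay below 1: 0.935 (0.876 to 0.998) in the intron deletion, 0.610 in the upstream deletion and 0.659 in WT (difference 0.56, edgeR adjusted p = 1.48e-08).

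Of 17 quiescence and stress genes 11 had gene-end bins, and their intervals lay below 1 in 8, included 1 in 3 and lay above 1 in 0. Their median ratio was 0.916; over the 10 listed in all libraries it was 0.911 in the intron deletion, 0.753 in the upstream deletion and 0.791 in WT. Ccng2, the growth-arrest cyclin G2, had 4311 scaled reads with IL-2, against 5173 in control, a ratio of 0.833 (0.803 to 0.865). Its ratio was 0.566 in the upstream deletion and 0.642 in WT (difference 0.47, edgeR adjusted p = 4.09e-10). Rbl2, the pocket protein p130, had 0.916 (0.877 to 0.957), against 0.578 in the upstream deletion and 0.620 in WT (difference 0.61, edgeR adjusted p = 2.53e-15). Sesn3, a stress-induced inhibitor of mTORC1 signalling, had 0.872 (0.812 to 0.936), against 0.629 in the upstream deletion and 0.594 in WT (difference 0.51, edgeR adjusted p = 5.35e-07). The difference passed for 7 of the 10, always towards a smaller decrease in the intron deletion, and for Foxo3, Foxo1 and Btg1 it did not. Of all 18580 bins tested, 10.1% had a higher response in the intron deletion by this test. Foxo3, a FOXO factor, had 0.905 (0.852 to 0.962) in the intron deletion, 0.916 in the upstream deletion and 0.928 in WT.

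**Figure D3:**
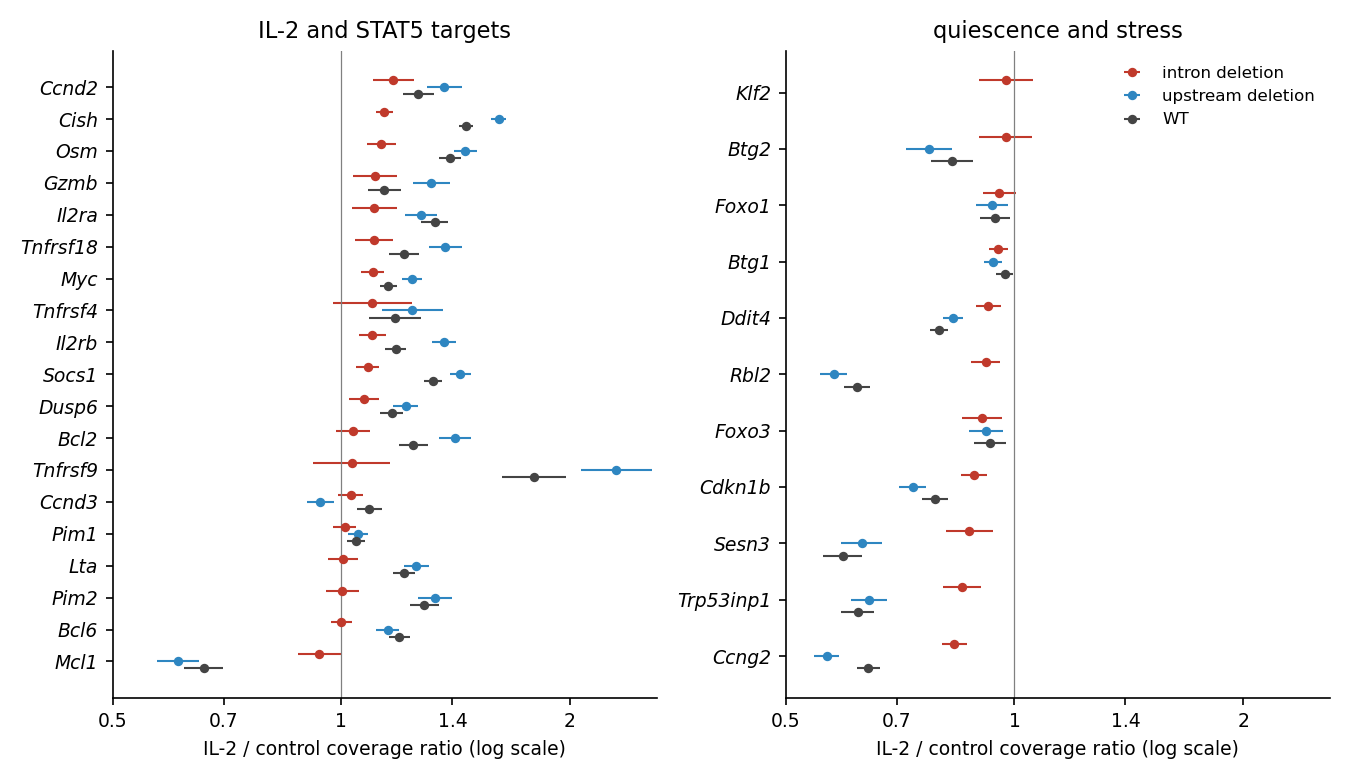
Scaled IL-2 over control coverage ratio (log axis) at the end bins of IL-2 and STAT5 target genes (left) and quiescence and stress genes (right) in the intron deletion, upstream deletion and WT, with exact 95% counting intervals as bars. In the intron deletion the targets lie between 0.935 and 1.17 and the quiescence genes between 0.833 and 0.975, nearer to 1 than most values of the other genotypes.

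Other lists also held shifted members, in some at a share near that of the targets. Of 12 activation and checkpoint genes, 6 intervals lay above 1 and 0 below, among them the immediate early factor Egr1 (1.19, 1.12 to 1.26) and the early activation receptor Cd69 (1.14, 1.07 to 1.20). Cd69 had 1.04 in the upstream deletion and 1.14 in WT (difference 0.06, edgeR adjusted p = 0.661). Fosl2, an AP-1 subunit, had 1.12 (1.07 to 1.16), against 1.63 in the upstream deletion and 1.61 in WT (difference -0.54, edgeR adjusted p = 2.84e-13). Of 8 NF-kB genes none lay above 1, and the inhibitors Nfkbia (0.876, 0.840 to 0.913) and Tnfaip3 (0.922, 0.895 to 0.951) lay below. Of 12 T cell identity genes 2 lay above 1 and 3 below, and Cd3g, a CD3 chain, had 0.910 (0.865 to 0.958), against 0.640 in the upstream deletion and 0.687 in WT (difference 0.46, edgeR adjusted p = 1.92e-07). Housekeeping genes had 3 of 8 above 1, led by Rpl13a at 1.08, and 0 below. Among the other lists, those of the IL-2 receptor and its kinases had 4 above 1 and 1 below of 12, nutrient uptake 3 and 0 of 9, cell cycle 3 and 3 of 11, effectors 3 and 0 of 5, naive and memory 2 and 0 of 7, and TNF receptor family 1 and 2 of 7.

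Contacts were noisier than coverage. Of 36958 pairs, 690 were called higher (1.87%) and 412 lower (1.11%), in 380 and 339 groups of linked pairs. The balance depended on the scaling: with scaling by anchor bin coverage, 401 were called higher and 667 lower, and with scaling by summed counts 537 and 504. In the upstream deletion 4.75% of pairs were called higher and 3.11% lower, and in WT 4.46% and 2.48%. Of the 629 higher pairs that all 6 libraries listed, 277 were above 1 in both other genotypes (44.0%, against 32.3% of all pairs), and of 306 lower ones 119 were below 1 in both (38.9%, against 30.1%). Both shares lay not far above the background. Pairs called higher in WT had a median ratio of 1.10 for the intron deletion and 1.39 for the upstream deletion, over 1654 pairs.

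The leading higher pair joined the bin at the downstream end of Cish to Hemk1, a methyltransferase gene downstream of Cish (chr9:107302001-107303000 and chr9:107336001-107337000). It had 92 contacts with IL-2, against 23 in control, a scaled ratio of 2.88 (1.81 to 4.77), with 2.16 in the upstream deletion and 1.63 in WT. A pair within Il2rb had 72 contacts with IL-2 and 23 in control (2.26, 1.39 to 3.78), with 1.31 in the upstream deletion and 1.39 in WT. A pair within the Arid5a locus, which encodes an mRNA-stabilising factor, had 86 contacts with IL-2 and 30 in control (2.07, 1.35 to 3.24), with 1.84 in the upstream deletion and 2.10 in WT. These pairs were named for high ratios in the intron deletion, with control counts not far above the listing limit of 20 contacts. None of them passed the edgeR test of the difference from the other genotypes. Others in the leading 10, such as Gimap9 to Gimap4 (2.16, with 0.906 in the upstream deletion and 0.860 in WT), were high in the intron deletion alone among these values. The leading lower pairs, Kcnip1 to Lcp2 (20 contacts with IL-2 and 39 in control) and a pair at Lck (20 with IL-2 and 38 in control), had ratios of 0.370 and 0.379. Both had IL-2 counts at the listing limit, and their ratios were 1.34 and 1.06 in the upstream deletion and 0.958 and 1.05 in WT.

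Most called pairs stood alone: 278 of the 380 higher groups and 288 of the 339 lower groups held a single pair, while 47 and 10 held at least 3. The loci with the most called higher pairs were summed over all the pairs that each genotype listed with and without IL-2, so the pairs summed differ between genotypes. The Cish, Hemk1, Mapkapk3 and 6430571L13Rik locus held 27 called higher pairs in 70 kb. All its 335 pairs together had a ratio of 1.16 (1.13 to 1.18) in the intron deletion, against 1.74 (1.71 to 1.77) in the upstream deletion (452 pairs) and 1.55 (1.53 to 1.58) in WT (542 pairs). At Bcl2 the ratio over 56 pairs was 1.28 (1.21 to 1.36), against 1.41 in the upstream deletion (65 pairs) and 1.39 in WT (66 pairs), and at Nabp1 over 66 pairs 1.246 (1.180 to 1.316), against 1.28 in the upstream deletion (128 pairs) and 1.34 in WT (146 pairs). At Prkcq it was 1.12 (1.10 to 1.15) over 319 pairs, with 1.12 in the upstream deletion (238 pairs) and 1.13 in WT (262 pairs). The coverage of the Prkcq end bin did differ, at 1.23 (1.19 to 1.28) in the intron deletion, against 1.67 in the upstream deletion and 1.64 in WT (difference -0.43, edgeR adjusted p = 1.56e-08, DESeq2 adjusted p = 0.00741). Differences of locus sums were not tested, and the loci were chosen for called pairs in the intron deletion, so their ratios there are descriptions. Further, the summed ratio was 1.09 at Cd8a with Cd8b1, the CD8 coreceptor. It was 1.07 at the Gimap GTPases, where 12 of 503 pairs were called higher and 1 lower. Each of these loci had 0.998 in the upstream deletion and 1.05 in WT.

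**Figure D4:**
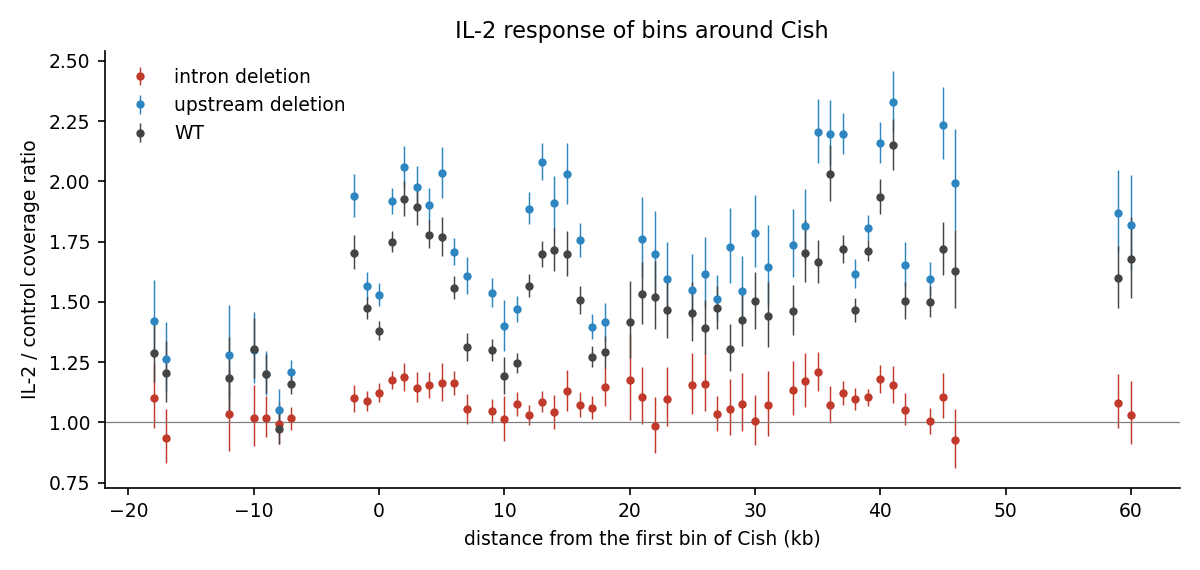
Scaled IL-2 over control coverage ratio of the bins around Cish, by distance from the first bin of the gene, with exact 95% counting intervals as bars. Intron deletion bins lie close above 1 over the stretch where the upstream deletion and WT bins lie higher; over the 70 kb locus the bin median is 1.09 in the intron deletion, 1.75 in the upstream deletion and 1.51 in WT.

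Contacts summed at gene ends gave 15 features called higher (0.522%) and 16 lower (0.557%) of 2873. In the upstream deletion 2.52% were called higher and 1.08% lower, and in WT 1.81% and 0.841%. The leading higher ones were Ogfr, an opioid growth factor receptor (152 contacts with IL-2, 60 in control, ratio 1.83, 1.35 to 2.50), Eef1a1, a translation elongation factor (83 with IL-2, 30 in control, 1.99), and Sp100, a nuclear body protein (126 with IL-2, 52 in control, 1.75). The leading lower ones were Acot7, a thioesterase (52 with IL-2, 71 in control, 0.528), and Myo1c, a motor protein (25 with IL-2, 37 in control, 0.487). The named ones each rested on 1 or 2 pairs. The coverage of their bins had ratios of 1.05 for Ogfr, 1.04 for Eef1a1, 1.06 for Sp100 and 0.997 for Acot7. Coverage of the bin with the Myo1c start had a ratio of 0.787 (0.686 to 0.903), on the side of its contacts. No gene end with at least 3 pairs was called. The promoter windows of Ogfr, Eef1a1, Acot7 and Myo1c held none of the 3 motifs. Cish, with 53 pairs, had 4695 contacts with IL-2 and 2806 in control, a ratio of 1.21 (1.15 to 1.26), against 1.57 in the upstream deletion and 1.39 in WT (difference -0.28, edgeR adjusted p = 0.014). Il2rb had 1.27 (1.17 to 1.38), against 1.32 in the upstream deletion and 1.17 in WT (difference 0.10, edgeR adjusted p = 0.721). Of 2873 gene ends, 110 had an interval above 1 (3.83%) and 54 below (1.88%); among the 19 STAT5 targets 4 lay above and 0 below.

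The difference of the gene-end contact response passed for 40 of 2489 features with a higher response in the intron deletion (1.61%) and 18 with a lower one (0.723%). DESeq2 called 0 and 0. Hemk1, downstream of Cish, had 1219 contacts with IL-2 and 824 in control in the intron deletion (1.07, 0.975 to 1.17), while its ratio was 1.65 in the upstream deletion and 1.59 in WT (difference -0.64, edgeR adjusted p = 2.64e-09). Coro2a, a coronin gene, had 1.02, against 1.55 in the upstream deletion and 1.61 in WT (difference -0.75, edgeR adjusted p = 1.86e-05). On the other side, Zc3h12d, a ribonuclease that restrains T cell activation, had 1.04 (0.939 to 1.16) in the intron deletion, against 0.656 in the upstream deletion and 0.728 in WT (difference 0.64, edgeR adjusted p = 1.14e-06). Cdkn1b, the cell cycle inhibitor p27, had 1.03 (0.939 to 1.13), against 0.650 in the upstream deletion and 0.831 in WT (difference 0.50, edgeR adjusted p = 1.48e-05); its coverage ratio was 0.884. At the level of single pairs the test passed for 1 pair with a higher response in the intron deletion (0.00357%) and 9 with a lower one (0.0321%), and 4 of the 9 lay in the Cish and Hemk1 locus; DESeq2 called 0 and 0. Pim1 is the gene of a survival kinase induced by STAT5. Its end bins had coverage ratios of 1.01 in the intron deletion, 1.05 in the upstream deletion and 1.04 in WT. Contacts at its ends had ratios of 1.09, 1.07 and 1.11, in that order. Among single pairs, the smallest adjusted p belonged to one outside this gene, between bins that start at chr17:29500001 and chr17:29506001. It had 50 contacts with IL-2 and 45 in control in the intron deletion (0.801, 0.525 to 1.23), against ratios of 3.72 in the upstream deletion and 3.63 in WT (difference -2.21, edgeR adjusted p = 0.000118). A pair between Lta, the cytokine lymphotoxin alpha, and Nfkbil1 had 105 contacts with IL-2 and 71 in control (1.07, 0.781 to 1.46), against 3.51 in the upstream deletion and 2.82 in WT (difference -1.55, edgeR adjusted p = 0.000746). The 1 higher pair lay at Pik3cd, a PI3-kinase subunit, with 115 contacts with IL-2 and 47 in control (1.76), against 0.697 in the upstream deletion and 0.687 in WT (edgeR adjusted p = 0.0176).

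A smaller ratio than in the other genotypes did not always mean a level near their controls. Rmi2, a neighbour of Socs1 in the genome and a subunit of the BLM complex, had an end-bin ratio of 1.15 (1.11 to 1.20) in the intron deletion, against 2.04 in the upstream deletion and 2.12 in WT (difference -0.85, edgeR adjusted p = 6.15e-28). Its coverage relative to the WT control library was 2.19 with IL-2 and 1.92 in control in the intron deletion, 2.31 with IL-2 and 1.12 in control in the upstream deletion, and 2.10 with IL-2 in WT. Prkcq likewise had 2.31 with IL-2 and 1.89 in control in the intron deletion, 1.92 with IL-2 and 1.13 in control in the upstream deletion, and 1.63 with IL-2 in WT. At Cish the values were 0.981 with IL-2 and 0.868 in control in the intron deletion, 1.60 with IL-2 and 0.983 in control in the upstream deletion, and 1.45 with IL-2 in WT. The intron deletion control thus already stood near the IL-2 level of the other genotypes at Rmi2 and Prkcq, and not at Cish.

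At Il2ra the response was small. The promoter bin (chr2:11642001-11643000) had 1503 scaled reads with IL-2, against 1360 in control, a ratio of 1.11 (1.03 to 1.18). The ratio was 1.27 for the upstream deletion and 1.33 for WT (difference -0.23, edgeR adjusted p = 0.0309); by DESeq2 the difference did not pass (adjusted p = 0.466). Relative to the WT control library, its coverage was 0.546 with IL-2 and 0.498 in control in the intron deletion, 1.08 with IL-2 and 0.837 in control in the upstream deletion, and 1.32 with IL-2 in WT. The 2 promoter pairs listed in both libraries summed to 91 contacts with IL-2 and 64 in control, a scaled ratio of 1.02 (0.736 to 1.43), which does not separate a change from counting error. Over the 11 promoter pairs listed in either library the ratio was 2.03 (1.62 to 2.56), a value that counts unlisted pairs as 0 and so also reflects the greater depth of the IL-2 library. A bin upstream at -26 kb had 1.11 (1.01 to 1.21) and one at 2 kb inside the gene 1.11 (1.04 to 1.19), while the bins at -16 kb and -12 kb, with 1.04 and 0.968, had 1.72 and 2.03 in WT.

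**Figure D5:**
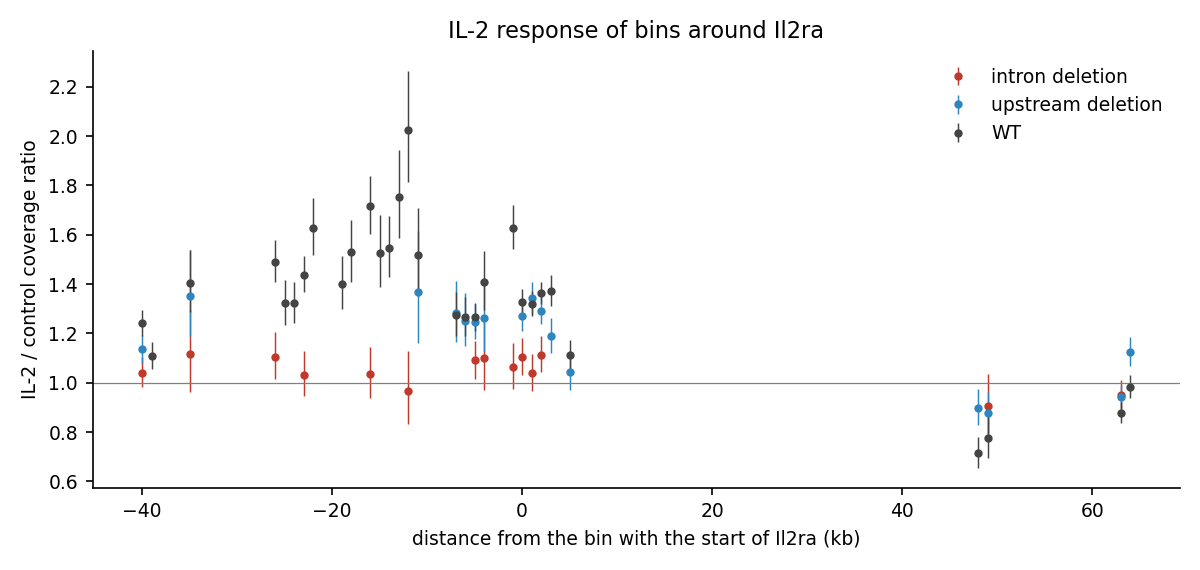
Scaled IL-2 over control coverage ratio of bins around Il2ra, by distance from the bin that holds its start of transcription, with exact 95% counting intervals as bars. Intron deletion points lie between 0.905 and 1.12, and the WT points upstream of the start lie between 1.11 and 2.03; a bin without a point for a genotype was not listed in both of its libraries.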

How the data were processed

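The deposited tables list pairs of 1 kb bins with whole-number contact counts and, for each bin, read coverage counts, made by the authors with CASAVA, Bowtie2 2.2.6 and HiC-Pro on mm10 (GRCm38), per the submitters' processing notes. Names of the 6 HiChIP tables carry FitHiChIP, ICE bias and 1 shared replicate number; no FitHiChIP version or threshold is given. The counts had not been normalised. The members, gene lists and loci were chosen with earlier results of these data known. Pairs and bins listed in both intron deletion libraries were compared as scaled ratios with exact Clopper-Pearson intervals (scipy 1.17.1), which cover counting error only. The difference of the response was tested with edgeR 4.0.16 (quasi-likelihood, R 4.3.3) on features listed in all 6 libraries, adjusted by Benjamini-Hochberg, and with DESeq2 1.42.0. The counting intervals and the edgeR test were checked on simulated data, and the DESeq2 test was not. Genes came from RefSeq GRCm38.p6, protein-coding, 21887 in number, and all 197 list genes matched. Named features followed a rule: up to 10 called features each way by the interval bound nearest 1, list genes, Il2ra, and up to 5 gene ends each way by adjusted p of the difference. Since 1 bin was called at 1.5-fold, bins were named at the planned lower fold (25% higher or 20% lower) and among bins called in both other genotypes. Coverage counts at gene ends were read as an alternative to contacts. The 19 ChIP-seq samples were not used here.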

Additional observations from a re-analysis of the deposited data

Results flagged for a closer look

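The IL-2 response of these gene ends or gene-end bins differed between the intron deletion and the mean of the other genotypes by a test of the difference itself (edgeR, adjusted p under 0.05); values are log2 differences, intron deletion minus others, and the causes were not tested. For contacts at gene ends, the response was higher in the intron deletion at Zc3h12d (0.64), Ms4a6b (0.48), Dgka (0.59), B4galt1 (0.43) and Cdkn1b (0.50). It was lower at Hemk1 (-0.64), 6430571L13Rik (-0.64), Coro2a (-0.75), Rmi2 (-0.56) and Osm (-0.55).

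For coverage of the gene-end bin with the most control reads, the response of IL-2 and STAT5 targets was lower in the intron deletion at Cish (-0.37), Socs1 (-0.39), Osm (-0.33), Pim2 (-0.38), Bcl2 (-0.35), Il2ra (-0.23), Tnfrsf18 (-0.22), Tnfrsf9 (-0.97) and Bcl6 (-0.23). It was higher at Mcl1 (0.56) and Ccnd3 (0.25). Among quiescence and stress genes it was higher, a smaller decrease, at Sesn3 (0.51), Trp53inp1 (0.43), Btg2 (0.28), Rbl2 (0.61), Ccng2 (0.47), Ddit4 (0.18) and Cdkn1b (0.22). By DESeq2, 4 of the 11 targets (Cish, Socs1, Tnfrsf9 and Mcl1) and 3 of the 7 quiescence genes (Sesn3, Rbl2 and Ccng2) passed.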

How the results depend on the processing

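The counts of called pairs depended on the threshold and on the scaling. Higher and lower pairs numbered 30 and 59 at a fold of 2, 170 and 72 with a 99% interval, 101 and 164 with at least 40 control contacts, 203 and 40 with a mean of at least 60 contacts in the other genotypes, and 401 and 667 when scaled by anchor bin coverage. Scaling by summed counts gave 537 higher pairs. Bins at least 25% higher or 20% lower numbered 150 higher and 139 lower, and 0 lower remained at a fold of 2. Bins with an interval above or below 1 numbered 1516 and 1352 with a 99% interval, chosen after seeing the data. Called gene ends numbered 44 and 33 at that fold, 0 and 2 at a fold of 2, 5 and 4 with a 99% interval, and 0 and 0 with at least 3 pairs or with coverage in place of contacts. With coverage, the ratios of Bco2/Pts (0.921), Gm41291 (1.01), Matr3 (1.03) and Mnd1 (1.03) changed side. The difference test by DESeq2 called 0 and 0 pairs, 124 and 375 bins and 0 and 0 gene ends, higher and lower. The edgeR test, limited to pairs with a mean count of at least 60, called 4 and 27 pairs. The Il2ra promoter ratio was 2.03 over pairs listed in either library. The causes were not tested, except that stricter limits leave fewer features. No paired analysis was possible because the labels give no replicate numbers and each group has 1 library here (all 6 tables carry the same replicate number in their names), so no library could be left out either. Depth limits pair ratios: a pair at the listing limit has 20 contacts.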
